A study of Mus musculus with 6 samples.

Results

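The 9 genes followed here were Tmem119, P2ry12, Fcrls, Cx3cr1, Sall1, Siglech, Gpr34, Olfml3 and Sparc, a set chosen by name because they are widely used to mark resting (homeostatic) microglia. The choice was made with earlier results of these data known. All 9 were present among the 19449 genes of the single-cell table and among the 55351 genes of the bulk table. Their levels were followed from day 6 to day 10 after T cell transfer in 2 of the study's cell clusters, numbered 8 and 10, and in microglia of naive mice. The mice were C57BL/6, either young (8 to 12 weeks) or middle-aged (40 to 44 weeks). Per the study's methods both sexes were used in its experiments, without a sex given for each library. Experimental autoimmune encephalomyelitis (EAE), a mouse model of multiple sclerosis, was induced by the adoptive transfer of CD4+ T cells that recognise the myelin peptide MOG35-55 and had been polarized with IL-23. All 4 single-cell libraries came from such recipients, 1 library for each age on each day, and each was made from CD45+ cells of 4 pooled spinal cords. The 2 bulk libraries, 1 per age, came from CD45int CD11b+ microglia sorted from the spinal cords of unmanipulated, untreated mice. No single-cell library came from naive mice, so day 10 was compared with day 6 and not with an undiseased state.

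Microglia are the resident macrophages of the central nervous system, and in health they carry a signature that sets them apart from blood-derived monocytes and macrophages. Part of it faces the surroundings: P2ry12 is a receptor for ADP released by damaged cells, Cx3cr1 is the receptor for the neuronal chemokine fractalkine, Gpr34 is a receptor for lysophosphatidylserine, and Siglech encodes a surface receptor of the Siglec family. Sall1 is a zinc-finger transcription factor that maintains microglial identity, and TGF-beta, acting through SMAD proteins, is known to be needed for the signature. In inflamed or demyelinated tissue microglia are known to lower these genes and to raise genes of lipid handling and phagocytosis, such as Apoe and Gpnmb.

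In the mouse genome (GRCm38, GENCODE annotation) all 9 are protein-coding genes, and 3 of them lie on chromosome 3: P2ry12 at chr3:59216272-59262871, Fcrls at chr3:87250758-87263738 and Olfml3 at chr3:103722222-103738001, all on the minus strand. Tmem119 lies at chr5:113793729-113800516, Siglech at chr7:55768178-55778925, Sall1 at chr8:89027235-89044162, Cx3cr1 at chr9:119901616-120069879, Sparc at chr11:55394500-55423183 and Gpr34 at chrX:13632089-13640858. RefSeq promoter sequence (GRCm38.p6) was matched for 7 of the 9 genes, Tmem119 and Gpr34 being without an entry, and the 250 bases before the start were searched for the SMAD box (CAGAC, or GTCTG on the other strand). It was found in 6 of the 9 promoters of these genes, Sall1 having more than 1 promoter, against 42.2% of 32851 mouse promoters of the same length. The core motif of the myeloid factor PU.1 (GAGGAA, or TTCCTC) was found in 1 of the 9, that of Fcrls, against 23.3% of all. A match of letters is a description and not a binding site. The stretches of 3 genes are shown 5′ to 3′ in the direction of transcription, because these genes were lower on day 10 in cluster 8 by the test given further on and their upstream stretch had at most 6 bases within an annotated gene. Capitals mark SMAD boxes, of which P2ry12 (chr3:59262986-59263235, minus strand) had 1, Siglech (chr7:55767934-55768183, plus strand) had 2 and Olfml3 (chr3:103738002-103738251, minus strand) had 0.
P2ry12: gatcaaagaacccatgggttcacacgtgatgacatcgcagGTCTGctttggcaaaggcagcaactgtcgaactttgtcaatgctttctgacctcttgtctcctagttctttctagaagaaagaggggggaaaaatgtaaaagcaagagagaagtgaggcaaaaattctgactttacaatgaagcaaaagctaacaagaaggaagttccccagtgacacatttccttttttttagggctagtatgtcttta
Siglech: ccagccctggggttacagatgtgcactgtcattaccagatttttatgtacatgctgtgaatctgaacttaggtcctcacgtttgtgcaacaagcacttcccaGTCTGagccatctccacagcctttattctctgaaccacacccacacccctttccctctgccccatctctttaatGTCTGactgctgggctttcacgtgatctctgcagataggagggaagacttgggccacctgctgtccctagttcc
Olfml3: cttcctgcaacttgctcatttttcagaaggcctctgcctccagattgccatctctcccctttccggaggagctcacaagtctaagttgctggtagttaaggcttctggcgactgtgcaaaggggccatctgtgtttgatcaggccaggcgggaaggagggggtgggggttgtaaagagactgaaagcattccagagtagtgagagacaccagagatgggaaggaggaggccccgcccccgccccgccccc

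The single-cell table held 38057 cells in 16 clusters, with 8315 to 10026 cells and 57337626 to 69859331 unique molecular identifiers (UMIs, each standing for 1 captured RNA molecule) per library. Cluster 10 held 1344 cells (216 to 432 per library, with a median of 6931 to 10000 UMIs per cell) and cluster 8 held 2057 (249 to 776 per library, 2059 to 3069.5 UMIs). Between pairs of libraries 154 cell barcodes were shared, of which 0 were in cluster 8 or 10 in both libraries of the pair. Shared barcodes in these clusters in only 1 library of a pair were not counted. Levels are given as CPM, the UMIs of a gene scaled to 1e+06 UMIs of the same cluster and library. The libraries were checked against the microglial label first. In cluster 10, 3 microglia markers were among the 10 genes that most set it apart from the other cells (Sparc, Sall1 and Fcrls), together with the astrocyte marker Slc1a3, so it is called microglia-like here. In cluster 8 none of the 16 microglia markers was among those 10 genes, which included Crybb1, a gene of the list of other homeostatic microglial genes, and Cox6a2, a marker of plasmacytoid dendritic cells, and this cluster is called by its number. The 16 microglia markers were nevertheless high there: in cluster 8 they summed to 27078 and 17190 CPM in the young libraries of day 6 and day 10. In the middle-aged libraries of the same days they summed to 20742 and 20565 CPM. In cluster 10 the same sum ran from 25025 to 29516 CPM. Markers of plasmacytoid dendritic cells, a list that holds Siglech, summed to 143 to 389 CPM in cluster 8 and to 374 to 563 CPM in cluster 10. Since the clusters were made from marker genes among others, the height of such genes in a cluster is a description.

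Each of the 9 genes was highest in cluster 10, and each was next highest in cluster 8. With the 4 libraries summed, Cx3cr1 stood at 1196 CPM in cluster 10 against 199 in cluster 8, and Sall1 at 108 against 18.4. Tmem119 stood at 413 against 182 and Olfml3 at 713 against 332. Together the 2 clusters held between 61.9% (Gpr34) and 92.8% (Sall1) of all UMIs of a gene. Siglech, which plasmacytoid dendritic cells also express, was the only member at nearly the same level in a cluster outside these: cluster 7, whose leading genes include the dendritic markers Cd209a and Ccr7, had 67.5 CPM (979 UMIs) against 72.0 in cluster 8. For the other 8 genes the next cluster in order reached at most 48.5 CPM, the value of Cx3cr1 in cluster 1.

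**Figure D1:**
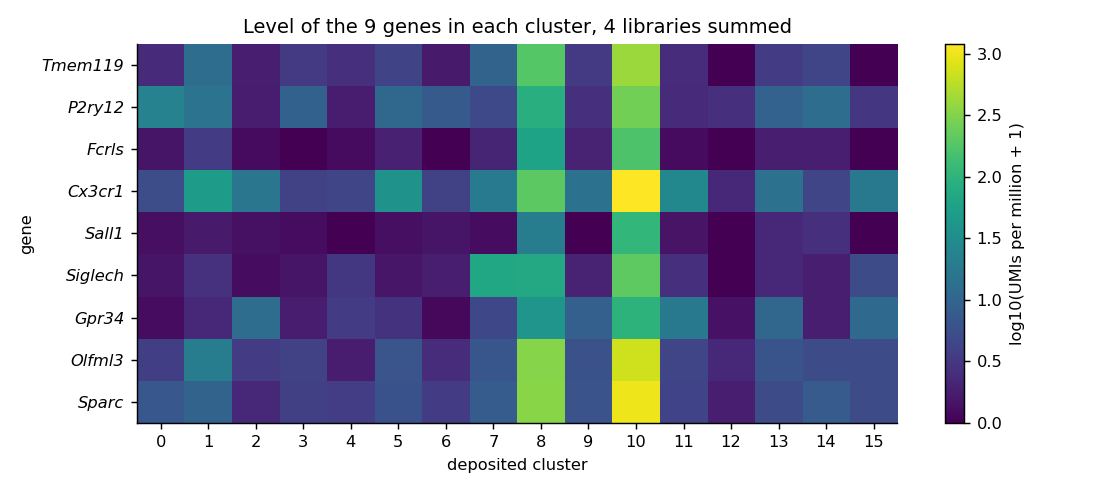
Level of the 9 genes (rows) in each of the 16 deposited clusters (columns), in CPM with the 4 libraries summed, on a colour scale in log10 units. The columns of clusters 8 and 10 are the brightest for every gene, and Siglech is also visible in cluster 7 at 67.5 CPM.

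In cluster 10 Fcrls, an Fc receptor-like scavenger protein, showed the largest change of the 9 genes by far. It stood at 493 CPM in the young day 6 library (1694 UMIs) and at 8.54 in the young day 10 library (30 UMIs). In the middle-aged libraries it stood at 116 CPM on day 6 (276 UMIs) and at 23.5 on day 10 (76 UMIs). Both day 10 libraries were thus below both day 6 libraries. The fall was 57.7-fold in the young (log2 -5.85, 95% interval -6.42 to -5.33) and 4.93-fold in the middle-aged (log2 -2.30, -2.69 to -1.93). These intervals, and all others on ratios of 2 libraries, are exact binomial intervals that cover counting error only and not the spread between animals. In young day 10 the 30 UMIs left lay in 27 cells, so nearly every such cell had 1.

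The other 8 genes of cluster 10 stood at 69.7 CPM or more in both day 10 libraries. Tmem119, a membrane protein by which microglia are identified, stood at 559 CPM in young day 6, 341 in young day 10, 391 in middle-aged day 6 and 354 in middle-aged day 10. P2ry12 stood at 409, 201, 239.6 and 208 CPM in the same order. Olfml3, a secreted olfactomedin-domain protein, stood at 1086, 489, 743 and 538 CPM. In these 3 genes, as in Fcrls, both day 10 libraries lay below both day 6 libraries, which held for 41.8% of the 8635 genes compared. The young day 6 library was the highest for each. For the remaining 5 genes the days overlapped. Cx3cr1 stood at 1776 CPM in young day 6 and at 1031, 848 and 1014 in young day 10, middle-aged day 6 and middle-aged day 10. Siglech stood at 355 CPM in young day 6 and at 153, 143 and 155 in the same 3 libraries. For both, young day 6 stood alone and the other 3 libraries lay close together, with middle-aged day 6 the lowest. Sparc, a secreted matricellular glycoprotein, stood at 1296, 915, 839 and 865 CPM, with the same order of the highest and the lowest library. Gpr34 stood at 125, 69.7, 80.6 and 111 CPM. Sall1 varied least, at 125, 108, 94.0 and 100.5 CPM.

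All 9 genes were highest in the young day 6 library in cluster 10. That library was the highest for 41.5% of the 8635 genes compared there. The young day 10 library was the lowest for 5 of the 9, against 29% of the genes. In 4 of the 9 genes both day 10 libraries lay below both day 6 libraries. This held for 41.8% of the same genes, so the 4 lay near the share of all genes. The summed level of the 9 genes was 6223 CPM in young day 6 and 3316, 3493 and 3369.85 in young day 10, middle-aged day 6 and middle-aged day 10.

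**Figure D2:**
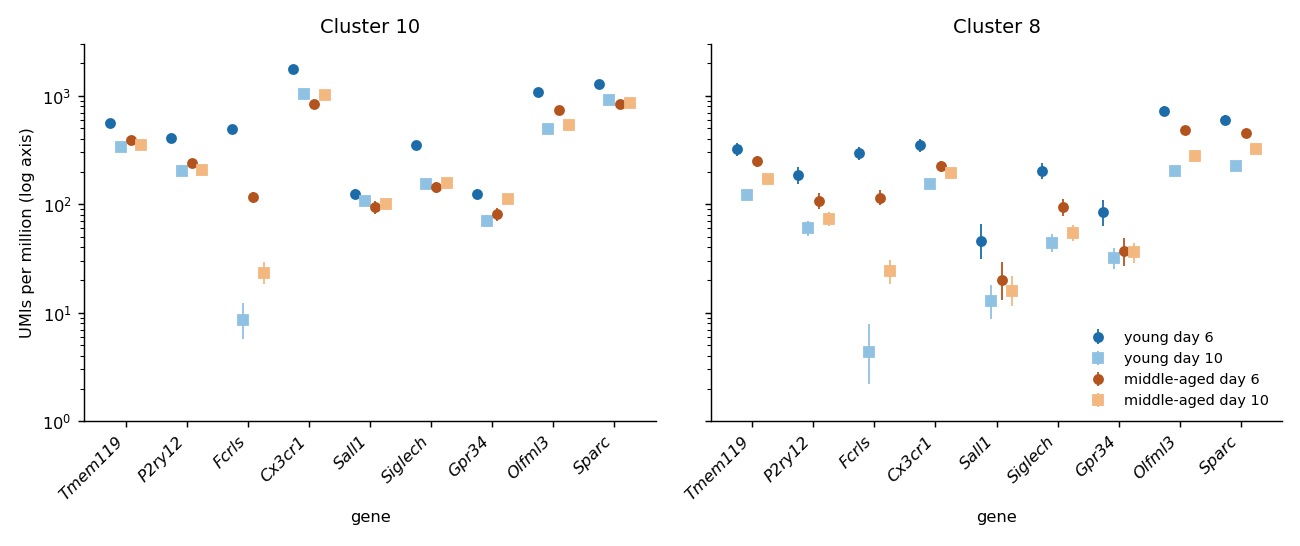
Level of each of the 9 genes in CPM (log axis) in clusters 10 and 8, with 1 point for each of the 4 libraries and exact Poisson 95% intervals that cover counting error only. Fcrls falls to 8.54 CPM in cluster 10 and 4.39 CPM in cluster 8 of the young day 10 library, while the young day 6 library is the highest for all 9 genes in both clusters.

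In cluster 8 the levels were lower than in cluster 10 in each library, except those of Fcrls, which were nearly the same in both clusters of the middle-aged libraries. Fcrls again stood apart, at 295 CPM in young day 6 (192 UMIs), 4.39 in young day 10 (11 UMIs), 115 in middle-aged day 6 (150 UMIs) and 24.0 in middle-aged day 10 (60 UMIs). This was a 67.2-fold fall in the young (log2 -6.07, interval -7.10 to -5.20), where the 11 UMIs left on day 10 lay in 11 cells. Olfml3 stood at 729.6, 203, 482 and 281 CPM in young day 6, young day 10, middle-aged day 6 and middle-aged day 10. Siglech stood at 204, 43.9, 93.8 and 54.4 CPM in that order. P2ry12 stood at 186, 59.9, 107 and 73.2 CPM. All of these were highest in young day 6 and lowest in young day 10, with the middle-aged libraries between them. Tmem119 stood at 323, 122, 248 and 171 CPM, and Sparc at 604, 227, 449.6 and 321. Cx3cr1 stood at 349, 153, 224 and 192 CPM. Sall1 rested on 26 to 40 UMIs per library, at 46.1, 12.8, 19.98 and 16.01 CPM. Gpr34 stood at 84.5, 31.9, 36.9 and 36.0 CPM, so that the middle-aged libraries of the 2 days differed by less than their counting error.

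In cluster 8 all 9 genes had both day 10 libraries below both day 6 libraries, against 51.8% of the 5198 genes compared in that cluster. All 9 were highest in young day 6 (42.2% of those genes) and lowest in young day 10 (31.9%). The summed level of the 9 genes fell from 2820.1 to 858 CPM in the young and from 1777 to 1169 CPM in the middle-aged.

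The day effect was tested with the edgeR quasi-likelihood test on UMIs summed per library, with age in the model, and adjusted over all genes tested (Benjamini-Hochberg). In cluster 10 1 of the 9 genes was called lower on day 10, against 3.46% of the 10562 genes tested: Fcrls, with a log2 change of -3.82 ± 0.58 (SE) and an edgeR adjusted p of 0.00244. For the other 8 the estimates ran from -0.66 (Olfml3, edgeR adjusted p = 0.201) through -0.46 (P2ry12, 0.311) and -0.41 (Siglech, 0.451) to 0.09 (Sall1, 0.848). The median over the 9 was -0.28, beside a median of 0.00 over all genes tested. In fits with day alone in the model, it was 0.20 without the young day 6 library, with 4 of the 9 below 0. It was -0.62 without the middle-aged day 6 library. With 4 libraries and 1 residual degree of freedom, the p-values rest on how far the change with day differed between the ages. The test moderates that spread by values pooled over genes, and the p-values do not measure the spread between animals. Each library stood for 1 age on 1 day, so a difference between days and one between library preparations cannot be told apart.

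In cluster 8 6 of the 9 genes were called lower on day 10, against 6.9% of the 8371 genes tested there, and none was called higher. They were Fcrls (log2 change -3.48 ± 0.46, edgeR adjusted p = 2.34e-05), Olfml3 (-1.03 ± 0.21, 0.00196), Siglech (-1.22 ± 0.27, 0.00331), P2ry12 (-0.80 ± 0.24, 0.0289), Sparc (-0.67 ± 0.20, 0.0331) and Tmem119 (-0.68 ± 0.21, 0.0337). The estimates for Sall1 (-0.79, edgeR adjusted p = 0.156), Gpr34 (-0.44, 0.385) and Cx3cr1 (-0.42, 0.229) did not pass. The median over the 9 was -0.79, beside -0.01 over all genes tested. DESeq2, run on the same sums, called 0 of the 9 genes in either cluster. It called 138 of 10562 genes in cluster 10 and 244 of 8371 in cluster 8. Its adjusted p for Fcrls was 0.160 in cluster 10 and 0.127 in cluster 8. In DESeq2 2 and 3 members had an unadjusted p under 0.05, beside 792 and 692 of all genes in clusters 10 and 8. With edgeR 2 and 7 members did, beside 2211 and 2089 of all genes, so the 2 in cluster 10 lay near the share of all genes. Single libraries also moved the edgeR estimates. Each fit with 1 library left out had day alone in the model, so age was not accounted for and 1 day kept 1 library. In these fits the median over the 9 in cluster 8 ran from -1.15 (without middle-aged day 6) to -0.44 (without young day 6). Fcrls ran from -4.99 to -2.76 in cluster 10 and from -5.15 to -2.72 in cluster 8.

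Markers of infiltrating monocytes and macrophages moved with the day in cluster 8. The 8 markers of that list, none of them at 0 over the libraries of this cluster, summed to 743 CPM in young day 6 and 1656 in middle-aged day 6, and to 6930.49 and 5576 in young and middle-aged day 10. In cluster 10 the same sum stayed between 1414 and 1834 CPM in the 4 libraries. The largest part in cluster 8 on day 10 was Chil3, a chitinase-like protein of monocytes and macrophages, at 78.3 and 475 CPM on day 6 (young and middle-aged) and 4822 and 3825 on day 10. Ly6c2, a defining marker of inflammatory monocytes, stood at 78.3 and 135 CPM on day 6 and at 645 and 508 on day 10. Of the 8, 5 were higher on day 10 at both ages and 2 were lower at both: Plac8 stood at 336 and 596 CPM on day 6 and at 209 and 166 on day 10, and Ms4a4c at 106 and 177 and at 100.2 and 67.2. In cluster 10, where the sum changed little, 3 were higher and 5 lower at both ages. Chil3 stood there at 242 and 449 CPM on day 6 and at 744 and 869 on day 10, and Plac8 at 583 and 648 and at 132 and 94.6. Cells with fewer than 2 UMIs of the 8 markers, a number that also depends on depth, were 256 of 432 in young day 6. They were 70 of 362 in young day 10, 51 of 216 in middle-aged day 6 and 93 of 334 in middle-aged day 10. Leaving out cells by these markers alone was not done in cluster 10. Markers of border macrophages summed in cluster 8 to 43.0 and 28.4 CPM on day 6 and to 250.3 and 290.2 on day 10. In cluster 10 they summed to 66.0 and 75.5 CPM on day 6 and to 133 and 164 on day 10. Neutrophil markers summed in cluster 8 to 6847 and 8854 CPM in young day 6 and young day 10. In middle-aged day 6 and middle-aged day 10 they summed there to 10093 and 3535 CPM, without a common direction by day. After cells with 2 or more UMIs of the monocyte and macrophage markers were left out of cluster 8 (leaving 181, 206, 177 and 345 cells in young day 6, young day 10, middle-aged day 6 and middle-aged day 10), 2 of the 9 genes were called by edgeR: Fcrls (log2 change -3.06, adjusted p = 0.00037) and Olfml3 (-0.68, 0.027). Of the 4547 genes tested then, 119 were called lower. The median over the 9 was -0.33, in place of -0.79. Without cells carrying markers of any other lineage, Fcrls and Olfml3 were again the members called in cluster 8, beside 118 of 3697 genes called lower. The median over the 9 was then -0.19, with 6 of the 9 below 0. In cluster 10, where 22 to 140 cells per library were left, 0 of the 9 were called, with Fcrls at a log2 change of -3.24 (edgeR adjusted p = 0.147). Cells carrying T cell, B cell, NK or neutrophil markers could be left out with the same 6 calls in cluster 8 and the call of Fcrls in cluster 10. As fewer microglia in a cluster and less RNA per microglial cell lower such a sum alike, they cannot be told apart from the sums, nor from the shares of cells given further on.

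Whether the change with day differed between the clusters was tested by an interaction term over both clusters, with library as a block. Siglech was the 1 member called, against 1.5% of the 10680 genes tested that were called in this direction: its change was lower in cluster 8 than in cluster 10 by a log2 difference of -0.74 ± 0.21 (edgeR adjusted p = 0.028). For the 8 other genes the difference did not pass, with Sall1 at -0.81 (edgeR adjusted p = 0.192), Sparc at -0.51 (0.224) and Fcrls at 0.41 (0.661). An unadjusted edgeR p under 0.05 was found for 3 of the 9, beside 1242 of the 10680 genes. The call of Siglech was lost in DESeq2, with each library left out in turn, and without cells carrying markers of other lineages. The plasmacytoid dendritic list, which holds Siglech itself, summed to 389, 143, 266 and 210 CPM in cluster 8 in young day 6, young day 10, middle-aged day 6 and middle-aged day 10, and its part in the result was not tested.

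The ratio of day 10 to day 6 was lower between the young libraries than between the middle-aged ones for each of the 9 genes in both clusters. In cluster 10 all 9 genes were lower in the young (median log2 ratio -0.85, beside -0.18 over 7051 genes, of which 65.6% were lower), and 4 of them were 2-fold or more lower, against 6.47% of those genes. They were Fcrls, Siglech (log2 -1.21, interval -1.36 to -1.07), Olfml3 (-1.15) and P2ry12 (-1.02). In the middle-aged libraries the median was 0.04, beside -0.12 over 6332 genes, with 4 of the 9 lower (61.9% of those genes) and 1 of the 9 2-fold or more lower, against 4.44%. Cx3cr1 had a ratio of -0.79 in the young (interval -0.85 to -0.73) and of 0.26 in the middle-aged (0.18 to 0.34). Gpr34 had ratios of -0.85 (-1.08 to -0.62) and 0.46 (0.20 to 0.72). For these 2 genes the ages thus lay on opposite sides of 0 beyond counting error, while for Sall1 (0.10, -0.15 to 0.35) and Siglech (0.12, -0.08 to 0.32) the middle-aged ratio could not be told from 0. In cluster 8 all 9 genes were 2-fold or more lower in the young, against 11.4% of 3091 genes, with a median of -1.63 beside -0.28 (67.6% of those genes were lower at all). In the middle-aged all 9 were lower (72.2% of 3630 genes), with a median of -0.54 beside -0.28, 7 with an interval wholly below 0, and 1 of the 9 (Fcrls, -2.26) was 2-fold or more lower, against 11.2%. Taken relative to the median of all genes, 7 of the 9 were lower in the middle-aged, Cx3cr1 and Gpr34 being the exceptions. With 1 library for each age and day, a difference between the ages in the change could not be tested.

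**Figure D3:**
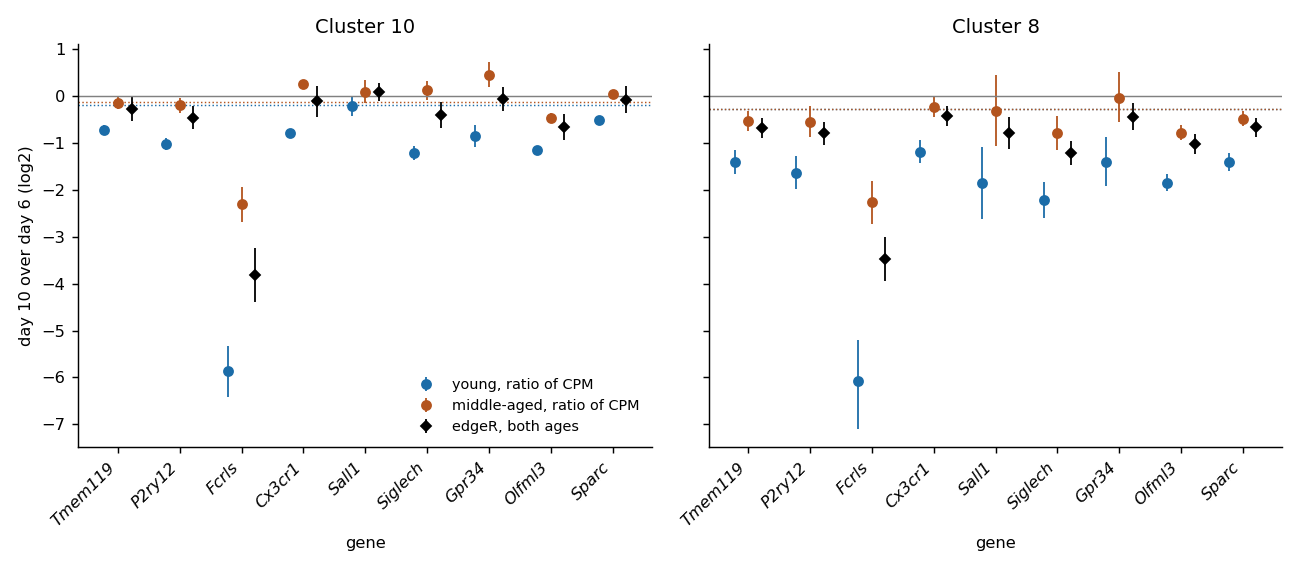
Change from day 6 to day 10 (log2, y axis) of each of the 9 genes in clusters 10 and 8. Circles are ratios of CPM within the young (blue) and middle-aged (orange) libraries with 95% counting intervals, diamonds are edgeR estimates over both ages with SE, and dotted lines are the medians of all genes for each age. Fcrls is the lowest point in both panels, and the blue circles lie below the orange ones for all 9 genes.

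The same levels read by age give the other side of this pattern. On day 6 all 9 genes were lower in the middle-aged library in cluster 10, with a median log2 ratio of -0.64 (54.9% of 6668 genes were lower), and 3 were 2-fold or more lower, against 1.42%: Fcrls (-2.09), Siglech (-1.31) and Cx3cr1 (-1.07). In cluster 8 all 9 were also lower on day 6 (52.8% of 2413 genes), with a median of -0.80, and 4 were 2-fold or more lower, against 0.373%: Fcrls (-1.36), Sall1 (-1.21), Gpr34 (-1.20) and Siglech (-1.12). On day 10 the median was 0.05 in cluster 10, where 3 of the 9 were lower (50.7% of 6712 genes), and 0.33 in cluster 8, where 0 of the 9 were lower (55.6% of 4077 genes). Fcrls was higher in the middle-aged libraries on day 10, by a log2 ratio of 1.46 (0.83 to 2.12) in cluster 10 and 2.45 (1.51 to 3.53) in cluster 8. Over both days, the age term of the edgeR fit called 0 of the 9 genes in either cluster. Of all genes it called 0.142% in cluster 10 and 0.0956% in cluster 8. At an unadjusted edgeR p under 0.05 were 1 member in cluster 10 (Siglech) and 0 in cluster 8, beside 356 of 10562 and 284 of 8371 genes. DESeq2 also called 0 of the 9.

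The share of cells in which a gene was seen was compared next. Each cell was thinned to 1000 UMIs, so that cells of different depth could be compared, which left out 1 to 8 cells per library in cluster 10 and 33 to 72 in cluster 8. In cluster 10 Fcrls was seen in 36.3% of cells in young day 6 (95% exact binomial interval 31.7 to 41.1), 1.66% in young day 10 (0.612 to 3.58), 11.2% in middle-aged day 6 (7.28 to 16.2) and 3.31% in middle-aged day 10 (1.67 to 5.85). Without thinning these shares were 78.7%, 7.46%, 48.6% and 12.6%. In cluster 8 the thinned shares were 20.6%, 0.794%, 12.99% and 2.84%. In T cell-like cluster 2, which should lack the gene and had a median of 4723 to 6235 UMIs per cell, the share was at most 0.154%. The day 10 shares of Fcrls, at most 3.31%, lay above that background beyond counting error except in cluster 8 of young day 10, where the interval (0.258 to 1.84%) met that of cluster 2 in the same library (0.00132 to 0.29%).

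Not every share moved with the level: in cluster 10 Sall1 was seen in 9.2% of cells in young day 6 and 12.5% in young day 10, while its level was 125 and 108 CPM, and in cluster 8 Cx3cr1 was seen in 16.3% in middle-aged day 6 and 18.0% in middle-aged day 10, while its level was 224 and 192 CPM. No order was read from these. Counted over the whole set, cells with UMIs of 3 or more of the 9 genes made up 79.2% of cluster 10 in young day 6, 42.9% in young day 10, 47.9% in middle-aged day 6 and 46.4% in middle-aged day 10. In cluster 8 they made up 33.0%, 8.41%, 22.1% and 12.8%. In cluster 2 and in B cell-like cluster 4 such cells numbered 0 in every library at this depth, which allows a share at 1000 UMIs of up to 0.122% to 0.265% in cluster 2 and up to 0.556% to 1.63% in cluster 4. Without thinning they made up at most 0.365% of cluster 2 (9 cells, in middle-aged day 10) and 0.296% of cluster 4 (1 cell, in the same library). At least 1 of the 9 genes was seen in 90.6% to 99.1% of thinned cells of cluster 10 in the 4 libraries. In cluster 8 this share was 80.4% in young day 6, 47.0% in young day 10, 68.0% in middle-aged day 6 and 54.8% in middle-aged day 10, against 1.5% to 3.87% in cluster 2 (8.27% to 17.5% there without thinning). In cluster 10 cells with a UMI of the set were thus the large majority on both days, whereas in cluster 8 cells without any were more frequent on day 10 at both ages. Fewer microglia and less RNA of the set per cell both lower such a share, so the shares cannot tell them apart.

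Further genes of the homeostatic signature did not move as one. Of 22 other homeostatic genes tested in cluster 10, edgeR called 0 and DESeq2 called 0, and their median log2 change was -0.01. With edgeR 6 of the 22 had an unadjusted p under 0.05, beside 2211 of all 10562 genes tested, so the 6 lay near the share of all genes. The lowest p belonged to P2ry13, an ADP receptor like P2ry12, at 225 and 157 CPM on day 6 (young and middle-aged) and 111 and 101 on day 10 (log2 change -0.68, edgeR adjusted p = 0.0656). It was followed by Hpgds (0.59, 0.174) and Tmem173 (-0.54, 0.176). In cluster 8 7 of the 22 were called lower, beside 6.9% of all genes tested, and 0 higher, with a median of -0.65, while DESeq2 called 1. Cst3, which encodes the protease inhibitor cystatin C, fell from 16424 to 4051 CPM in the young and from 8659.85 to 4136 in the middle-aged (log2 change -1.26, edgeR adjusted p = 3.99e-06). P2ry13 fell by 1.00 on the log2 scale (edgeR adjusted p = 0.00354) and Entpd1, an enzyme that breaks down extracellular ATP, by 0.98 (0.00122).

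Among 18 regulators of microglial identity, cluster 10 had 1 call higher, beside 3.18% of all genes tested, and 0 lower. The 1 was Cebpa, a myeloid transcription factor, with a log2 change of 0.74 ± 0.20 (edgeR adjusted p = 0.0471), a call lost in 9 of its alternatives. DESeq2 called 0 of the 18 in that cluster. In cluster 8 2 of the 18 were called lower, beside 6.9% of all genes tested, and 0 higher, and DESeq2 called 1. The 2 were Csf1, a ligand of the receptor on which microglia depend (log2 change -1.48, edgeR adjusted p = 4.59e-05), and Irf8, a transcription factor of the myeloid lineage (-0.56, 0.0432). In both clusters these few calls among the 18 lay near the share of all genes.

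Genes of microglial activation moved the other way. In cluster 10 9 of 15 were called higher, against 3.18% of genes tested, and 0 lower, with a median log2 change of 1.23. Apoe, an apolipoprotein, stood at 991 and 1104 CPM on day 6 (young and middle-aged) and at 13121 and 16178 on day 10, with a log2 change of 3.95 (edgeR adjusted p = 9.19e-04). Gpnmb, a glycoprotein of phagocytic cells, rested on 1 UMI in young day 6 and reached 84.5 CPM in young day 10 and 88.1 in middle-aged day 10 (log2 change 4.37, edgeR adjusted p = 7.40e-04). Ctsd, which encodes the lysosomal protease cathepsin D, rose by a log2 change of 1.96 (0.0112). In cluster 8 13 of 15 were called higher, against 6.5%, and 0 lower, with a median of 1.42. Apoe rose there by a log2 change of 4.59 (edgeR adjusted p = 1.81e-15), Gpnmb by 3.65 (9.21e-09) and Lgals3, which encodes galectin-3, by 2.45 (6.63e-07). DESeq2 called 7 activation genes in cluster 10 and 8 in cluster 8, beside 138 of 10562 and 244 of 8371 genes tested. Several of these genes, Apoe, Gpnmb and Lgals3 among them, are also expressed by infiltrating macrophages, and their part in the values was not tested.

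**Figure D4:**
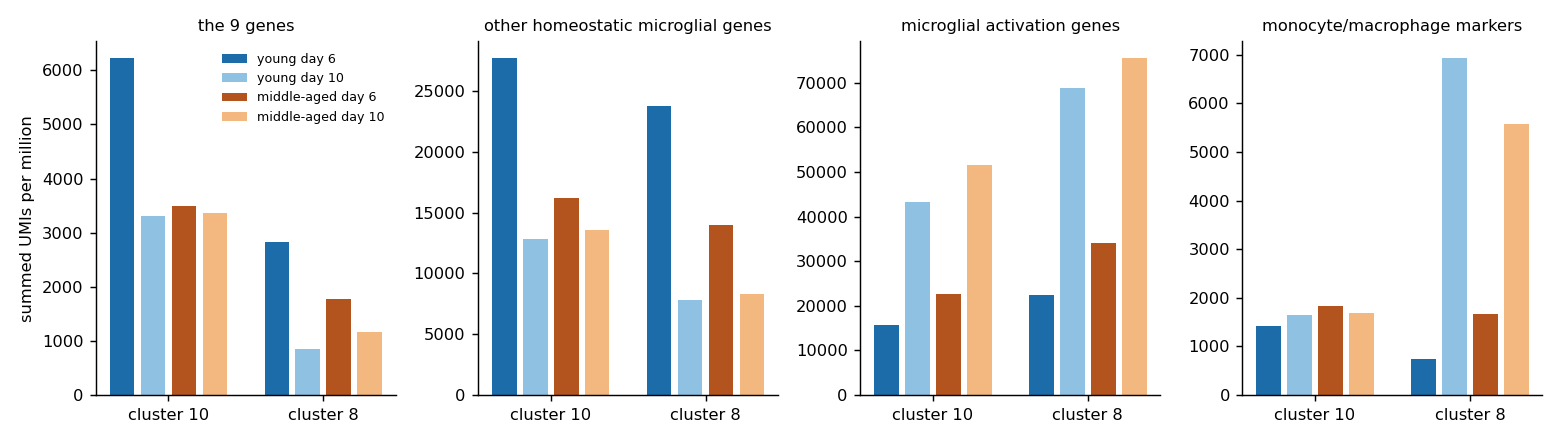
Summed CPM of the 9 genes, of other homeostatic microglial genes, of microglial activation genes and of monocyte and macrophage markers in clusters 10 and 8, with 1 bar per library (1 library per age and day, no error bars). The 9 genes sum to 6223 CPM in cluster 10 of young day 6 and to 3316 to 3493 CPM in the other 3 libraries, and the monocyte and macrophage markers reach 6930.49 CPM in cluster 8 of young day 10.

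The genes whose levels over clusters and libraries were most like the mean of the 9 were Plxdc2 (Pearson r = 0.986), Tpbgl (0.980), Slc2a5 (0.979), Ecscr (0.979) and Slco2b1 (0.979). The correlation was taken over 57 pairs of cluster and library, on log2(CPM + 10), and ranked 9263 genes. The points share libraries and cells, and most of the likeness is the height in clusters 8 and 10. Slc2a5, Ecscr and Slco2b1 were also on the list of other homeostatic genes above.

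In naive microglia, without EAE, the 9 genes were at high and nearly equal levels at both ages. Read counts scaled to 1e+06 per library (CPM) and divided by the kilobases of exon put Cx3cr1 highest, at 1720.37 in the young and 1589 in the middle-aged library, followed by P2ry12 (1560.48) and Tmem119 (1449.5) in the young and by Tmem119 (1482) and P2ry12 (1330.44) in the middle-aged, with Sall1 lowest at 196 in both. These lengths join the exons of all transcripts of a gene. In CPM P2ry12 stood at 3973 in the young and 3387 in the middle-aged library, a change of -14.7% and the largest decrease of the set. Gpr34 stood at 1533 and 1685, a change of 9.9% and the largest increase. Fcrls stood at 2231 and 1989.9, Sparc at 3237 and 2931, Siglech at 988 and 929, and Cx3cr1 at 7750.2 and 7159. Tmem119 (3356 and 3429.8), Olfml3 (2276 and 2311.9) and Sall1 (1031 in both) differed by less than 3%. Of the 9 genes 5 were lower in the middle-aged library, against 51.7% of 14821 genes, and their median log2 ratio was -0.09. With 1 library per age there is no replicate check and no test.

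Markers of vascular cells differed more between the 2 bulk libraries than the 9 genes did. All 9 endothelial markers were lower in the middle-aged library (median log2 ratio -2.28, summed level 707 against 154 CPM), and the 4 mural cell markers with 100 or more counts had a median of -2.26. Of 8 border macrophage markers 7 were lower, with a median of -1.01, while the 16 microglia markers had a median of -0.01 and summed to 44021 and 42128.5. The 9 genes alone summed to 26375 CPM in the young and 24853.3 in the middle-aged library. The bulk and single-cell libraries were made by different methods, so their levels were not set against each other.

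**Figure D5:**
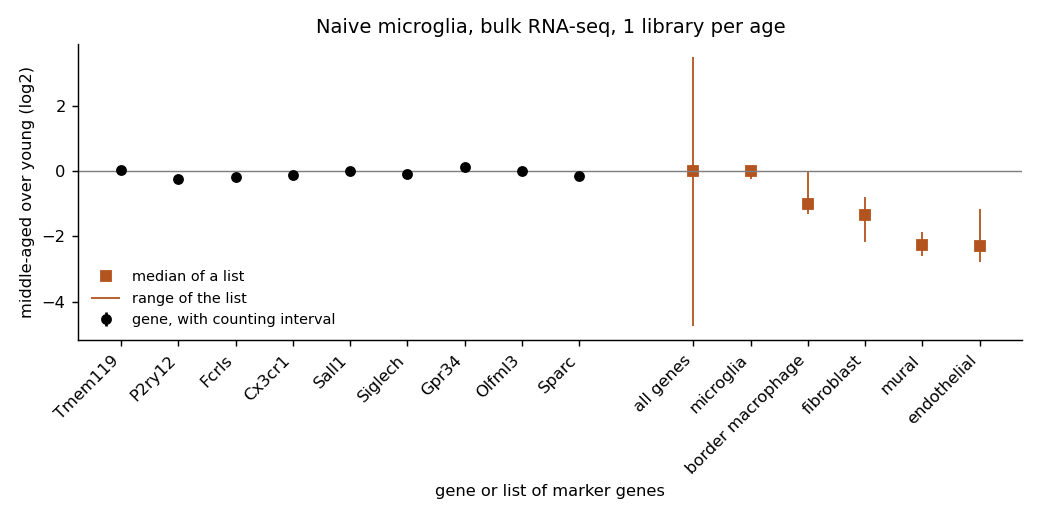
Log2 ratio of CPM in naive microglia, middle-aged over young, for each of the 9 genes and, as medians with the lowest and highest member, for all genes and for lists of marker genes (1 library per age). The 9 genes lie between -0.23 and 0.14, and the median of the endothelial markers lies at -2.28.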

How the data were processed

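The single-cell libraries were 10x Chromium libraries counted by the authors with Cell Ranger 3.1.0 on the mm10 genome; per the study's methods, cells and genes were filtered and cells were integrated and clustered in Seurat. The authors deposited unnormalized UMI counts, 1 column per cell, with a cluster number for each cell. For the bulk libraries the authors trimmed reads with fastp, aligned them with HISAT2 and deposited raw read counts per gene from featureCounts in unstranded mode, so overlapping genes on opposite strands share reads. All columns of samples were mapped (0 left over), the authors' tests over single cells were not used, and no doublet caller was run.

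UMIs were summed per cluster and library and scaled to CPM. Day and age effects were tested in edgeR 4.0.16 (R 4.3.3, quasi-likelihood, TMM, 10 or more counts in 2 or more libraries, Benjamini-Hochberg over all genes tested, call at an adjusted p under 0.05), and the clusters against each other with library as a block. Ratios of 2 libraries (set beside all genes with 100 or more UMIs in both together, a minimum not applied to the 9 genes) and shares have exact 95% binomial intervals, levels exact Poisson ones, and the floor is 3 counts. The procedure was tested on simulated data. Alternatives were RLE factors, no filter, DESeq2 1.42.0, 1 term alone, no mitochondrial or ribosomal protein genes, no cells with other lineages' markers or under 1000 UMIs, and each library left out; leaving out cells of narrower marker lists and summing both clusters were chosen after the data were seen.

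The 9 genes and all lists were chosen with earlier results of these data known. From each list the text names the 3 called genes of largest change, or else the 3 of lowest p, and the 5 genes of most alike pattern. Sequences are from RefSeq (GRCm38.p6), and gene positions from GENCODE. Other tools were Python 3.11.15, numpy 2.4.6, pandas 2.3.3, scipy 1.17.1 and matplotlib 3.10.9.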

Additional observations from a re-analysis of the deposited data

Results flagged for a closer look

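In cluster 10, 2 of the 9 genes moved in opposite directions at the 2 ages. Cx3cr1 had a log2 ratio of day 10 to day 6 of -0.79 in the young and 0.26 in the middle-aged, and Gpr34 one of -0.85 and 0.46, with counting intervals that leave out 0 at both ages. In cluster 8 both genes had ratios below 0 at both ages. With 1 library for each age and day, this difference between the ages was not tested.

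Siglech was the 1 member whose change with day differed between the clusters by the edgeR interaction test, being lower in cluster 8 by a log2 difference of -0.74. Of 10680 genes tested, 1.5% were called in this direction. The call was lost in DESeq2 and with each library left out in turn. It was also lost without cells carrying other lineages' markers, and without those carrying T cell, B cell, NK or neutrophil markers.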

How the results depend on the processing

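No paired analysis was possible because the labels carry no replicate numbers, with 1 library for each age and day. The calls rest on 4 libraries and 1 residual degree of freedom, and on as few as 11 UMIs of Fcrls (cluster 8, young day 10). The day and age fits with 1 library left out had day or age alone in the model, so their counts come from a different model. RLE factors, day alone in the model and leaving out cells under 1000 UMIs kept the members called for the day effect in both clusters; the cause of the shifts given here was not tested.

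The genes called for day in cluster 10, 701 in all, numbered 1201 without a filter, 138 in DESeq2, 403 without mitochondrial and ribosomal protein genes, 36 without cells carrying other lineages' markers, 387 without cells carrying T cell, B cell, NK or neutrophil markers, and 194 to 1944 with 1 library left out (203 without young day 10, 1944 without middle-aged day 6, 194 without middle-aged day 10). Of the members 0 were called in DESeq2 and 0 without cells carrying other lineages' markers, and 1 to 6 with 1 library left out (6 without middle-aged day 6). In cluster 8 the genes called, 1122 in all, numbered 244 in DESeq2, 406 without cells carrying other lineages' markers, 407 without those carrying monocyte or macrophage markers, and 699 to 1438 with 1 library left out (699 without young day 10, 721 without middle-aged day 10). The members called there were 0, 2 and 2 in the same 3 alternatives, and 3 to 9 with 1 library left out (3 without young day 10, 9 without middle-aged day 6).

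The genes called for age numbered 15 in cluster 10 and 8 in cluster 8. They were 53 and 41 without a filter, 5 and 2 in DESeq2, 0 and 0 with age alone, 0 and 1 without cells carrying other lineages' markers, and 0 to 1 in cluster 10 and 0 in cluster 8 with any library left out. The genes called for a difference between the clusters, 303 in all, numbered 84 in DESeq2, 22 without cells carrying other lineages' markers, 115 without those carrying T cell, B cell, NK or neutrophil markers, and 108 to 251 with 1 library left out (132 without young day 10, 108 without middle-aged day 6, 148 without middle-aged day 10), with 0 members called in each of these.

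Estimates that were not called changed sign in some alternatives. In cluster 10, P2ry12 stood at 0.050 and Sparc at 0.18 without cells carrying other lineages' markers, and Sall1 at -0.16 with clusters 8 and 10 summed. With 1 library left out in cluster 10, Cx3cr1 ran from -0.62 to 0.39, Siglech from -1.02 to 0.22, Gpr34 from -0.41 to 0.27, Sparc from -0.36 to 0.20 and Sall1 from -0.084 to 0.26, and in cluster 8 Gpr34 from -0.99 to 0.15. Without cells carrying other lineages' markers, Cx3cr1 stood at 0.094, Sall1 at 0.15 and Gpr34 at 0.36 in cluster 8. Without those carrying monocyte or macrophage markers, Sall1 stood at 0.053 and Gpr34 at 0.29. The difference between the clusters was 0.12 for Tmem119, 0.36 for Cx3cr1, 0.30 for Gpr34 and 0.35 for Olfml3 without cells carrying other lineages' markers, and that of Fcrls ran from -0.36 to 0.75 with 1 library left out.

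The median ratio of day 10 to day 6 over the 9 genes was -1.22 in the young and -0.17 in the middle-aged with both clusters together, where Cx3cr1 stood at 0.063 in the middle-aged. As a mean of log-normalized values per cell, the median in cluster 8 was -0.67 in the young and -0.24 in the middle-aged. Shares of cells with 3 or more of the 9 genes changed with the thinning, which also leaves out different numbers of shallow cells, and are given in the order young day 6, young day 10, middle-aged day 6 and middle-aged day 10. In cluster 10 they were 98.4%, 95.3%, 97.2% and 97.3% without thinning and 95.6%, 75.8%, 81.3% and 74.8% at 2000 UMIs. In cluster 8 they were 61.8%, 32.5%, 57.1% and 37.6% without thinning and 62.9%, 19.4%, 44.4% and 26.6% at 2000 UMIs.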
